A study of Mus musculus with 6 samples.

Results

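Cell cycle and mitosis genes were examined as 46 named mouse genes, from the D cyclins and the replication machinery to mitotic kinases and spindle motors, in bulk RNA sequencing of isolated glomeruli. They were matched by symbol to the deposited count table of 57132 gene entries, and all 46 passed the filter on low counts that left 19927 genes for testing. In all, 3 libraries came from Cre-/Setdb2fl/fl and 3 from Cre+/Setdb2fl/fl mice, and both groups carry the floxed Setdb2 gene and are labelled DKD, for diabetic kidney disease. The series' design text asks how SETDB2, a histone methyltransferase family protein, acts in podocytes, the filtration cells of the glomerulus, during that disease. The sources used here do not give the Cre driver, the way diabetes was induced, or the animals' age and sex. The labels also do not say whether each library is a separate mouse. The p-values therefore measure the spread between these libraries, and not a known spread between mice.

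A cell that enters division makes D cyclins, which with Cdk4 act on the retinoblastoma pocket proteins and so release E2F transcription factors. E2F factors, with cyclin E and Cdk2, switch on the G1/S genes that license replication origins, build the replication fork and make deoxynucleotides. After replication, cyclin A, cyclin B, Cdk1 and the Aurora and Polo kinases drive mitosis. Those G2/M genes are transcribed late, under a complex of Mybl2 and Foxm1. Mature podocytes are known as cells that rarely divide, whereas injured tubule cells and infiltrating leukocytes can. The members fell by role into a D cyclin group of 4, a G1/S group of 20 and a G2/M group of 22.

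Library totals lay between 53571438 and 58807042 counts, and members had 24 to 13562 counts in a library. Setdb2 itself stood at 8.37 ± 1.62 CPM (counts scaled to library size; SD, n = 3) in the Cre- libraries and at 7.70 ± 0.371 (SD, n = 3) in the Cre+ libraries, and whether these gene-wide counts cover the floxed exons cannot be seen. Podocyte markers summed to between 443 and 725 CPM per library and proximal tubule markers to between 5419 and 8997 CPM, so the glomerular isolates also held tubule RNA. Of the marker genes listed for 13 cell types, the neutrophil gene Mpo was the one at 0 in every library. The data set 2 libraries apart. Cre- replicate 1 had the highest level of 41 of the 46 members, whereas 22.02% of all genes tested were highest there. Cre+ replicate 2 held 24 counts of Xist, the long RNA of the inactive X chromosome, against 36474 to 47632 in the other libraries. Log2 fold changes of members are therefore also given without Cre- replicate 1, and calls of members also without Cre+ replicate 2. Since Cre- replicate 1 was picked for its high member levels, leaving it out raises most log2 fold changes of members partly by construction.

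Between genotypes, 2 members were higher in Cre+ glomeruli, both D cyclins, and 1 was lower, the replication helicase factor Cdc45. The other 43 did not pass edgeR's quasi-likelihood test with Benjamini-Hochberg adjustment over all genes at 0.05. Across all genes tested, 7.55% passed, 3.73% higher and 3.82% lower in Cre+, so 3 of 46, or 6.52%, was a share near the background. The fitted log2 fold changes of the members leaned to lower values in Cre+ all the same, with 42 of 46 below 0 and a median of -0.76 (range -1.69 to 0.52). The median over all genes tested was -0.00089 and 50.1% of them lay below 0. Without Cre- replicate 1 the members' median became -0.16, with 31 below 0 and 15 above, a shift partly set by picking that library. In that comparison Ccnd1 was higher and Rrm2 lower, against 5.58% of all genes passing. In such bulk samples, fewer cells of a type and less RNA per cell cannot be told apart.

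**Figure D1:**
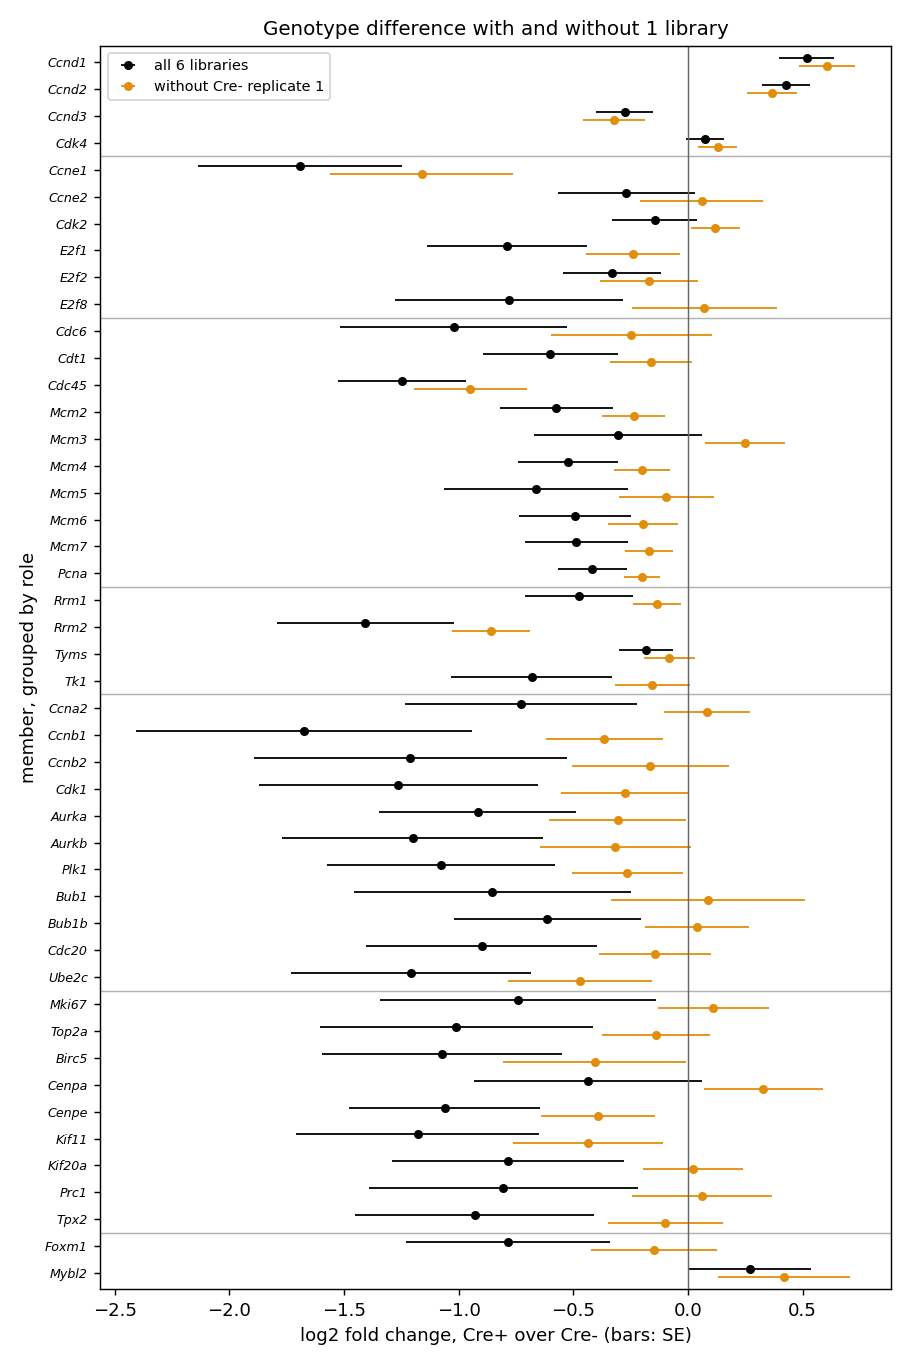
Log2 fold change of each of the 46 members, Cre+ over Cre- (horizontal axis, bars are SE), from edgeR with all 6 libraries in black and without Cre- replicate 1 in orange, with grey lines between the 7 role groups. Most black points lie left of 0, at a median of -0.76, and most orange points lie closer to 0, at a median of -0.16.

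The D cyclins are the growth-signal sensors of the G1 phase. Ccnd1 (cyclin D1, ENSMUSG00000070348) was at 179, 170 and 132 CPM in the Cre- libraries of replicates 1 to 3 and at 208, 238 and 243 CPM in the Cre+ libraries. The groups did not overlap, and Cre- replicate 3 was the lowest library, with means of 160 ± 25.1 CPM in Cre- and 229 ± 18.9 CPM in Cre+ (SD, n = 3 each). Ccnd1 was higher in Cre+ by 0.52 on the log2 scale (SE 0.12, 95% interval 0.24 to 0.79, edgeR adjusted p = 0.0362), a 1.43-fold difference. Ccnd2 (cyclin D2, ENSMUSG00000000184) was at 17.5, 20.97 and 18.9 CPM in Cre- and at 25.6, 27.6 and 23.9 CPM in Cre+, again without overlap (19.1 ± 1.75 against 25.7 ± 1.86, SD, n = 3 each). It was higher in Cre+ by 0.43 (SE 0.10, 95% interval 0.19 to 0.66, edgeR adjusted p = 0.0424), which is 1.34-fold. In the other members of the group the libraries overlapped. Ccnd3 (cyclin D3) read 109, 141 and 99.5 CPM in Cre- against 92.1, 102 and 93.6 in Cre+, a log2 fold change of -0.28 (SE 0.12, edgeR adjusted p = 0.223), or -0.32 without Cre- replicate 1. Cdk4, the kinase partner of the D cyclins, read 89.4, 85.7 and 74.3 CPM against 89.3, 89.9 and 83.3 CPM, a log2 fold change of 0.07 (SE 0.08, 95% interval -0.12 to 0.26, edgeR adjusted p = 0.656), or 0.13 without that library.

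Both D cyclin calls were sensitive to single libraries. With 1 library left out, the log2 fold changes stayed at 0.40 to 0.61 for Ccnd1 and 0.37 to 0.49 for Ccnd2. Over all genes, edgeR's calls fell from 1505 to between 462 and 700 when a Cre+ library was left out. Without Cre- replicate 1, edgeR gave Ccnd1 an adjusted p of 0.0278 (log2 fold change 0.61) and Ccnd2 one of 0.0989 (0.37). Without Cre+ replicate 2 the edgeR values were 0.126 for Ccnd1 and 0.157 for Ccnd2. Leaving out Cre- replicate 2, Cre+ replicate 1 or Cre+ replicate 3 also ended the Ccnd1 call, at edgeR adjusted p = 0.0672, 0.0612 and 0.139. For Ccnd2 the same held without Cre- replicate 3, Cre+ replicate 1 or Cre+ replicate 3, at edgeR adjusted p = 0.0706, 0.120 and 0.0960, and limma voom with all libraries gave Ccnd2 an adjusted p of 0.0592. In the annotation, Ccnd1 shares 1100 of its 4709 exonic bases with Lto1 on the opposite strand. That neighbour had 1192 to 1379 counts in Cre- and 1134 to 1311 in Cre+, and since the strand setting of the counting is not given, reads in the shared bases cannot be assigned with certainty.

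**Figure D2:**
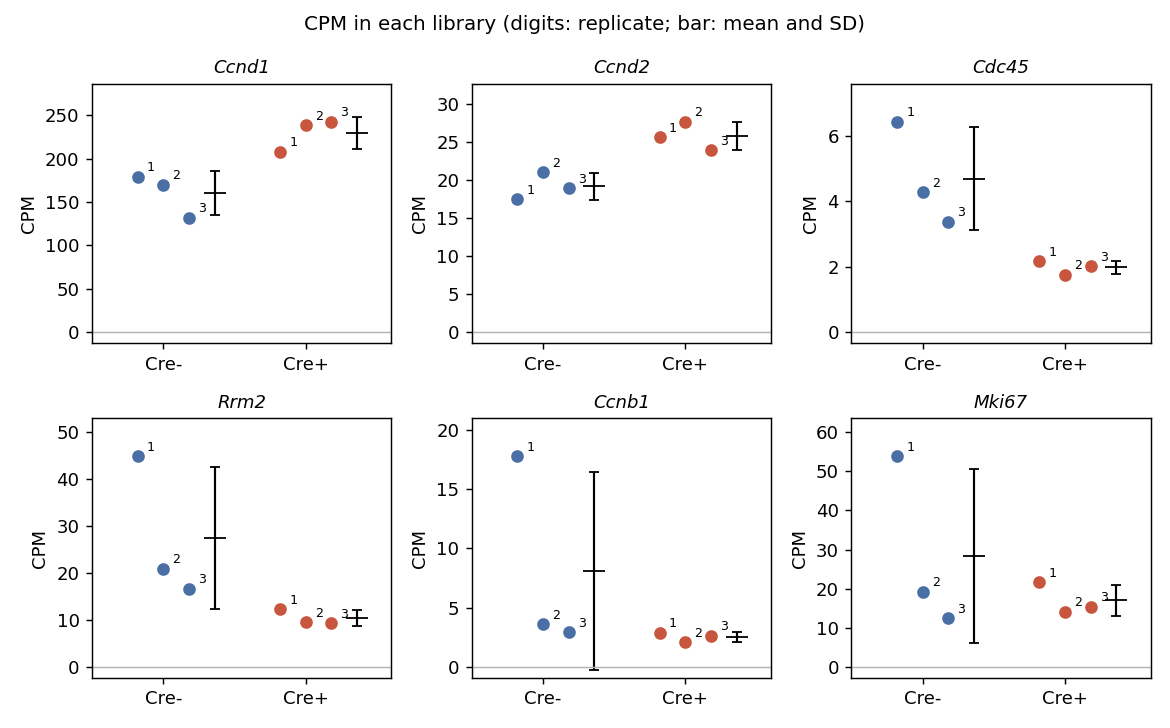
CPM of 6 members in each library (vertical axes, linear), blue for Cre- and red for Cre+, with the replicate number beside each point and a black bar for the mean and SD (n = 3 per group). Ccnd1 and Ccnd2 are higher in every Cre+ library, whereas for Rrm2, Ccnb1 and Mki67 the Cre- library of replicate 1 stands far above the others, at 44.7, 17.7 and 53.8 CPM, and stretches the SD, which for Ccnb1 reaches below 0.

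Levels per kilobase of exon placed the members in a wide order. Averaged over the 6 libraries, Ccnd1 was highest at 41.4 CPM per kilobase, then Cdk4 at 26.3, the replication clamp Pcna at 20.3 and Ccnd3 at 12.1. At the low end were E2f8, a repressor of the E2F family, at 0.383, the licensing factor Cdc6 at 0.433, the kinetochore motor Cenpe at 0.479 and cyclin E1 (Ccne1) at 0.502 CPM per kilobase. The order at the low end differed by group, since Ccne1 was the lowest member in Cre+ at 0.238 and lay above Bub1 (0.667) in Cre- at 0.767 CPM per kilobase. Among the D cyclins, Ccnd2 was the lowest at 2.38 CPM per kilobase.

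In the G1/S group, 1 of 20 members (5.0%) was lower in Cre+, where 3.82% of all genes were, none was higher and 19 did not pass. An unadjusted p under 0.05 was found for 5 of the 20, against 23.5% of all genes. DESeq2 called 5 lower and limma voom 2, where they called 7.76% and 4.24% of all genes lower. The median log2 fold change was -0.55 (range -1.69 to -0.15). Summed over the 20 genes, the Cre- libraries held 525, 305 and 277 CPM and the Cre+ libraries 275, 247 and 250 CPM. Cre- replicate 1 was high, and the other 5 lay within a narrower range in which Cre- replicate 3 and Cre+ replicate 1 nearly coincided. The median without Cre- replicate 1 was -0.17, with 16 members below 0 and 4 above.

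Among the cyclin E, Cdk2 and E2F genes, which start the switch into S phase, none of 6 passed edgeR's test. An unadjusted p under 0.05 was found for 1 of them and for 23.5% of all genes. DESeq2 called 1 lower, where it called 7.76% of all genes lower. Ccne1 (cyclin E1) was at 3.29, 1.23 and 1.599 CPM in Cre- and at 0.694, 0.421 and 0.783 CPM in Cre+, from 24 to 200 reads per library. The groups did not overlap, and the log2 fold change was -1.69 (SE 0.44, edgeR adjusted p = 0.0542), or -1.16 without Cre- replicate 1 (edgeR adjusted p = 0.1504). Ccne1 passed without Cre- replicate 2 (edgeR adjusted p = 0.0448), with a filter of 1 CPM in 3 libraries (0.0451) and with DESeq2 (0.00601). E2f1, an activating E2F, was at 12.6, 6.01 and 4.60 CPM in Cre- and at 4.86, 4.32 and 4.30 CPM in Cre+, a log2 fold change of -0.79 (SE 0.35, edgeR adjusted p = 0.221), or -0.24 without Cre- replicate 1. E2f8 was at 4.97, 1.34 and 1.58 CPM against 1.43, 1.30 and 1.88 CPM. Its fitted difference went from -0.78 (SE 0.50, edgeR adjusted p = 0.396) to 0.07 without Cre- replicate 1. Cdk2, the kinase of cyclin E, was at 35.2, 22.9 and 21.2 CPM against 26.0, 23.2 and 22.6 CPM, with -0.15 (SE 0.19, edgeR adjusted p = 0.699) becoming 0.12. Ccne2 (cyclin E2) and E2f2, an activating E2F, had log2 fold changes of -0.27 and -0.33, or 0.060 and -0.17 without that library. In all 6 genes Cre- replicate 1 was the highest library.

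The origin licensing and fork group of 10 held the single lower call. Cdc45 (ENSMUSG00000000028), which joins the Mcm ring to form the moving helicase, had 391, 239 and 190 reads in Cre- and 116, 100 and 108 reads in Cre+, or 6.44, 4.28 and 3.38 CPM against 2.18, 1.76 and 2.01 CPM. Every Cre- library lay above every Cre+ library, with means of 4.70 ± 1.57 against 1.98 ± 0.212 CPM (SD, n = 3 each). The log2 fold change was -1.25 (SE 0.28, 95% interval -1.88 to -0.61, edgeR adjusted p = 0.0304), so the Cre- level was 2.37-fold the Cre+ level. Without Cre- replicate 1 the log2 fold change of Cdc45 was -0.95 (SE 0.25, edgeR adjusted p = 0.0664), and without Cre+ replicate 2 the adjusted p was 0.116. The call was also lost without Cre- replicate 2, Cre+ replicate 1 or Cre+ replicate 3, at edgeR adjusted p = 0.0584, 0.0841 and 0.113. It held without Cre- replicate 3, at an edgeR adjusted p of 0.0159. With single libraries left out, the log2 fold change of Cdc45 stayed between -1.43 and -0.95. Cdc45 shares 209 of its 3506 exonic bases with Ufd1 on the opposite strand.

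Pcna, the sliding clamp of the fork polymerases, was at 71.2, 48.7 and 47.4 CPM in Cre- and at 40.3, 41.2 and 43.8 CPM in Cre+. Its groups did not overlap, with a log2 fold change of -0.42 (SE 0.15, edgeR adjusted p = 0.144). Mcm4, a subunit of the helicase ring, was at 22.7, 13.0 and 12.9 CPM against 11.5, 11.04 and 11.3 CPM, also without overlap, with -0.52 (SE 0.22, edgeR adjusted p = 0.190). These became -0.20 for Pcna and -0.20 for Mcm4 without Cre- replicate 1. The remaining ring subunits, Mcm2, Mcm3, Mcm5, Mcm6 and Mcm7, overlapped between groups and had log2 fold changes of -0.57, -0.31, -0.66, -0.49 and -0.49, which were -0.24, 0.25, -0.09, -0.20 and -0.17 without Cre- replicate 1. DESeq2 called Mcm2 and Pcna lower, at DESeq2 adjusted p = 0.0479 and 0.0423, where it called 7.76% of all genes lower. Neither passed with limma voom, at limma voom adjusted p = 0.208 and 0.147. Cdc6 and Cdt1, which load the ring onto origins, had -1.02 and -0.60, also with overlapping groups, and -0.25 and -0.16 without that library.

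Of the 4 deoxynucleotide synthesis genes none passed edgeR's robust test with all libraries. An unadjusted p under 0.05 was found for 23.5% of all genes and for 1 of these 4. That gene, Rrm2, was called lower by DESeq2 (adjusted p = 0.0180), by limma voom (0.0491) and by edgeR's non-robust fit (0.0455). Rrm2 (ENSMUSG00000020649), the S-phase small subunit of ribonucleotide reductase, was at 44.7, 20.9 and 16.7 CPM in Cre- and at 12.3, 9.53 and 9.26 CPM in Cre+. The groups did not overlap, and without Cre- replicate 1 the smaller difference of -0.86 (SE 0.17) passed at an edgeR adjusted p of 0.0259, where the larger -1.41 (SE 0.39) with all libraries had 0.0876. Its partner Rrm1, the large subunit, was at 45.6, 26.0 and 24.7 CPM against 24.8, 21.2 and 23.3 CPM, with overlap and a log2 fold change of -0.48 (SE 0.23, edgeR adjusted p = 0.279), or -0.13 without Cre- replicate 1. Tk1, the thymidine salvage kinase, was at 27.1, 13.3 and 10.1 CPM against 11.5, 9.87 and 10.2 CPM, with -0.68 (SE 0.35, edgeR adjusted p = 0.304), or -0.15 without that library. Tyms, which makes thymidylate, had the smallest rise in Cre- replicate 1 of the G1/S group, 0.34 on the log2 scale over the mean of the other 5 libraries.

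In the G2/M group, none of 22 members passed edgeR's test and 1 had an unadjusted p under 0.05, as 23.5% of all genes had. DESeq2 called 3 lower (Aurkb, Plk1 and Cenpe), where it called 7.76% of all genes lower. Limma voom, which called 4.24% of all genes lower, called 0. The median log2 fold change was -0.92 (range -1.67 to 0.27), further from 0 than in the G1/S group, and without Cre- replicate 1 it was -0.15, with 14 below 0 and 8 above. No difference between the G1/S and G2/M medians was tested. Summed over the 22 genes, the Cre- libraries held 415, 149 and 106 CPM and the Cre+ libraries 148, 103 and 110 CPM. Cre- replicate 2 and Cre+ replicate 1 were next after Cre- replicate 1 and nearly equal, and the remaining 3 were nearly equal as well.

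Ccnb1 (cyclin B1, ENSMUSG00000041431), the activator of Cdk1 at mitotic entry, was at 17.7, 3.61 and 2.93 CPM in Cre- and at 2.89, 2.09 and 2.65 CPM in Cre+. The groups did not overlap, but Cre- replicate 3 and Cre+ replicate 1 were almost equal, and Cre- replicate 1 was 5.42-fold above the mean of the other Cre- libraries. The log2 fold change was -1.67 (SE 0.73, edgeR adjusted p = 0.239), and -0.36 (SE 0.26, edgeR adjusted p = 0.491) without that library. Ccnb2 (cyclin B2) and Cdk1 were likewise highest in that library, 4.18-fold and 3.95-fold above, with log2 fold changes of -1.21 and -1.26, or -0.16 and -0.27 without it. Ccna2 (cyclin A2) was at 26.2, 8.12 and 7.98 CPM against 10.2, 8.15 and 7.19 CPM, with -0.73 (SE 0.50, edgeR adjusted p = 0.456). The value for Ccna2 was 0.08 without Cre- replicate 1.

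Among the mitotic kinases and the ubiquitin machinery that ends mitosis, all groups overlapped. Ube2c, an enzyme of anaphase-promoting ubiquitination, was at 18.3, 7.28 and 4.98 CPM in Cre- and at 6.28, 3.70 and 3.26 CPM in Cre+, with a log2 fold change of -1.21 (SE 0.52, edgeR adjusted p = 0.227). Aurka, the spindle pole kinase, was at 10.2, 4.60 and 3.32 CPM against 4.30, 2.90 and 2.40 CPM, with -0.92 (SE 0.43, edgeR adjusted p = 0.247). Aurkb, the chromosomal passenger kinase, and Plk1, the Polo kinase, had -1.20 and -1.08, or -0.32 and -0.26 without Cre- replicate 1. Cdc20, which activates the anaphase-promoting complex, had -0.90 (-0.14 without it), and the spindle checkpoint kinases Bub1 and Bub1b had -0.85 and -0.61 (0.088 and 0.041). The Ube2c and Aurka values were -0.47 and -0.31 without Cre- replicate 1.

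The chromosome and spindle genes followed. Mki67, the proliferation marker Ki-67 that coats mitotic chromosomes, was at 53.8, 19.2 and 12.4 CPM in Cre- and at 21.6, 14.1 and 15.4 CPM in Cre+. Cre- replicate 2 lay within the range of the Cre+ libraries and Cre- replicate 3 below it. The log2 fold change of Mki67 was -0.74 (SE 0.60, edgeR adjusted p = 0.540) with all libraries and 0.11 (SE 0.24, edgeR adjusted p = 0.861) without Cre- replicate 1. Top2a, the topoisomerase that untangles sister chromatids, was at 44.1, 15.5 and 9.86 CPM against 14.2, 9.55 and 10.7 CPM, with -1.01 (SE 0.60, edgeR adjusted p = 0.388), or -0.14 without that library. Cenpe was at 9.71, 3.72 and 3.32 CPM against 2.25, 2.56 and 3.22 CPM, the other G2/M member besides Ccnb1 whose groups did not overlap, with -1.06 (SE 0.42, edgeR adjusted p = 0.171), or -0.39 without it.

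Kif11, the motor that separates spindle poles, was at 17.1, 7.37 and 4.00 CPM in Cre- and at 5.66, 3.49 and 3.45 CPM in Cre+, with -1.18 (SE 0.53, edgeR adjusted p = 0.244). Birc5 (survivin), a passenger complex subunit, was at 9.73, 4.87 and 2.20 CPM against 3.58, 2.60 and 1.81 CPM, with -1.07 (SE 0.52, edgeR adjusted p = 0.272). Both overlapped between groups, with Cre- replicate 3 below Cre+ replicate 1, and had -0.43 and -0.41 without Cre- replicate 1. The histone variant Cenpa that marks centromeres, the cytokinesis motor Kif20a, the midzone protein Prc1 and the spindle assembly factor Tpx2 had log2 fold changes of -0.44, -0.79, -0.80 and -0.93, and overlapped too. These were 0.33, 0.024, 0.061 and -0.10 without that library.

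The pair of G2/M transcription factors differed from each other in their levels by library. Foxm1 was at 16.4, 6.71 and 5.63 CPM in Cre- and at 7.01, 3.69 and 6.00 CPM in Cre+, with a log2 fold change of -0.78 (SE 0.45, edgeR adjusted p = 0.349), or -0.15 without Cre- replicate 1, its highest library. Mybl2 was at 3.59, 2.42 and 3.00 CPM against 3.43, 4.69 and 2.74 CPM, with 0.27 (SE 0.27, edgeR adjusted p = 0.607), or 0.42 without that library. Its highest library was Cre+ replicate 2, and it was the only member outside the D cyclin group that was not highest in Cre- replicate 1. Mybl2 is itself known as an E2F target.

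How far 1 library carried the levels can be put in numbers. On the log2 CPM scale, the median member stood 1.49 above the mean of the other 5 libraries in Cre- replicate 1, a 2.81-fold excess, where the median over all genes tested was 0.0038. The excess was -0.02 for the D cyclin group, 1.05 (range 0.34 to 1.90) for G1/S and 1.78 (range 0.18 to 2.65) for G2/M members, or 2.08-fold and 3.44-fold for the last 2 groups. In that library 40 members stood more than 0.5 above the mean of the others, against 15.4% of all genes tested, and in each of the other libraries between 0 and 3 members did. The ratio of summed G2/M to summed G1/S CPM was 0.791 in Cre- replicate 1, 0.487 and 0.385 in the other Cre- libraries and 0.538, 0.415 and 0.439 in the Cre+ libraries. Within genotypes, the median member of Cre- replicate 1 was 2.51-fold the mean of Cre- replicates 2 and 3, with 1.79-fold for G1/S and 3.25-fold for G2/M.

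**Figure D3:**
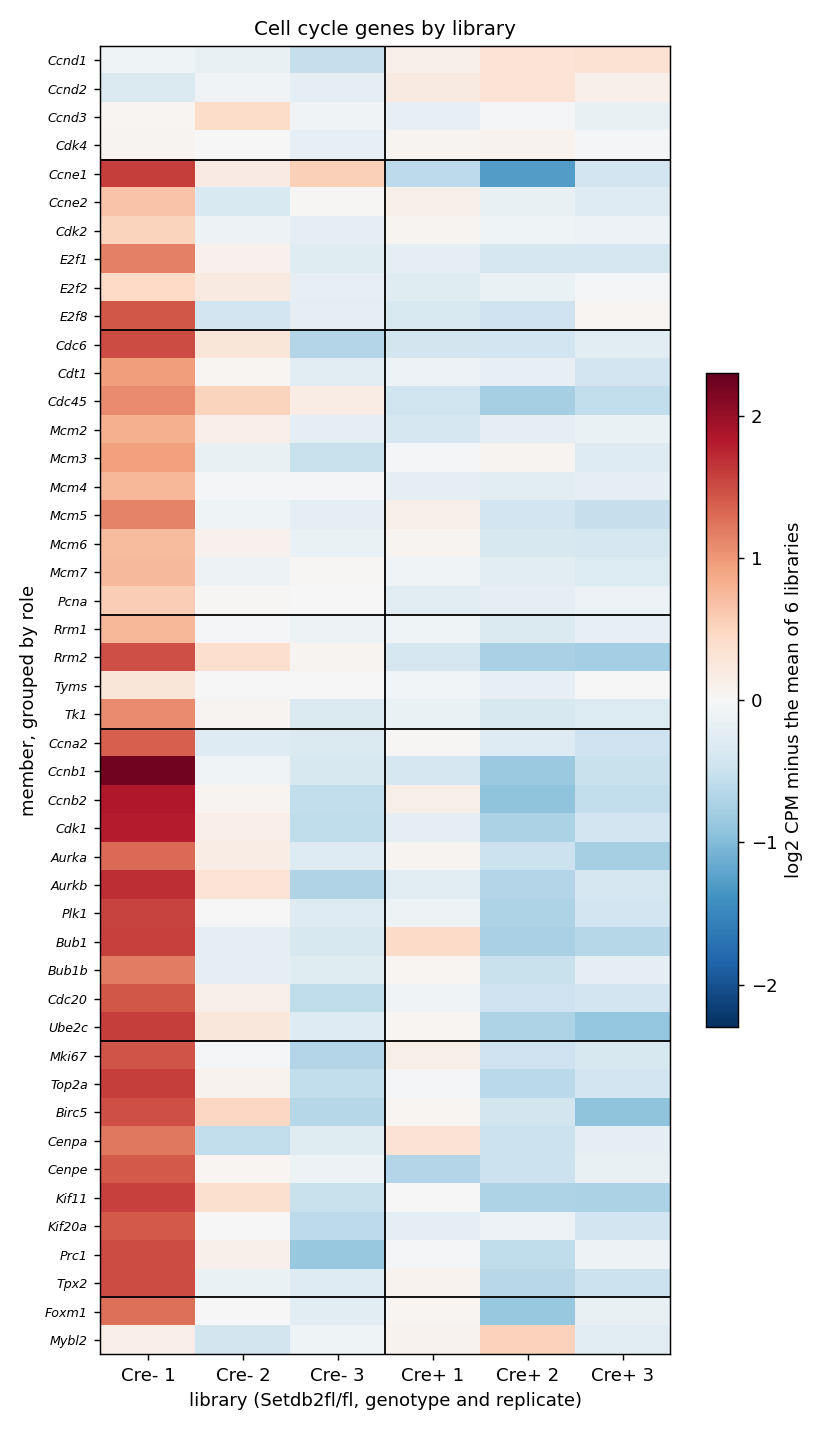
Log2 CPM of each member minus its mean over the 6 libraries (colour, red above and blue below the mean), with members in rows grouped by role (D cyclins and Cdk4; cyclin E, Cdk2 and E2F; licensing and fork; deoxynucleotides; mitotic cyclins and kinases; chromosome and spindle; G2/M transcription factors) and libraries in columns. The column of Cre- replicate 1 is red in nearly all members below the D cyclins and deepest in the mitotic cyclins, where Ccnb1 was 5.42-fold above the other Cre- libraries.

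With that library set aside, the order of the remaining 5 was mixed. Of the 42 G1/S and G2/M members, the highest of the other 5 libraries was Cre- replicate 2 for 25, Cre+ replicate 1 for 11, Cre- replicate 3 for 3, Cre+ replicate 2 for 2 and Cre+ replicate 3 for 1. Over all 46 members, 9 had groups that did not overlap, 7 with Cre- higher and 2 with Cre+ higher, which is 19.6%, while 29.7% of all genes tested had none, 14.5% with Cre- higher and 15.2% with Cre+ higher. Those with Cre- higher were Ccne1, Cdc45, Mcm4, Pcna, Rrm2, Ccnb1 and Cenpe.

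Markers of other cell types also differed between the libraries. All 6 injured tubule markers were highest in Cre- replicate 1, and they summed to 724, 296 and 227 CPM in Cre- and to 128, 147 and 122 CPM in Cre+. Of them, 4 were lower in Cre+, but 3 without Cre- replicate 1, 1 without Cre- replicate 2 or Cre+ replicate 2, 0 without Cre+ replicate 1 or 3, and 2 with limma voom. Havcr1, the kidney injury molecule of proximal tubule, read 275, 43.6 and 19.8 CPM against 0.281, 0.351 and 0.596 CPM. Macrophage markers, 6 of 7 highest in Cre- replicate 1, summed to 249, 137 and 208 CPM in Cre- and to 155, 159 and 148 CPM in Cre+. Fibroblast markers summed to 304 CPM in Cre- replicate 1 and to between 209 and 269 CPM elsewhere. Proximal tubule markers, of which 4 of 6 were higher in Cre+, summed to 5419, 6050 and 5614 CPM in Cre- and to 8319, 8170 and 8997 CPM in Cre+. T lymphocyte markers (7.33 CPM in Cre- replicate 1, 4.74 to 11.99 elsewhere) and B lymphocyte markers (2.57 CPM, 0.913 to 3.70 elsewhere) were not highest in that library. Parietal epithelium markers (224 CPM, 158 to 193 elsewhere) and the low neutrophil markers (1.55 CPM, 0.228 to 0.930 elsewhere) were. Erythroid markers were not, at 69.1 CPM against 47.3 to 368 elsewhere. Like Ccnd1 and Ccnd2, markers of several resident cell types were higher in Cre+. This held for 5 of 6 glomerular endothelial markers, whose sums were 374 to 425 CPM in Cre- and 493 to 540 CPM in Cre+, and for 3 of 5 mesangial markers, at 107 to 131 against 180 to 193 CPM. It also held for 2 of 6 podocyte markers, at 443 to 513 against 629 to 725 CPM, and for 3 of 5 distal tubule and collecting duct markers, at 5470 to 6854 against 8719 to 9436 CPM. In the endothelial, proximal tubule and distal lists, 1 marker each had a log2 fold change below 0, at -0.49, -0.71 and -0.66. DESeq2 called the endothelial and the proximal tubule one lower. Limma voom, edgeR's non-robust fit and the filter of 1 CPM in 3 libraries also called 1 proximal tubule marker lower. With the replicate block 1 distal marker was called lower. The part of these cell types in the level of the cell cycle genes was not tested.

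**Figure D4:**
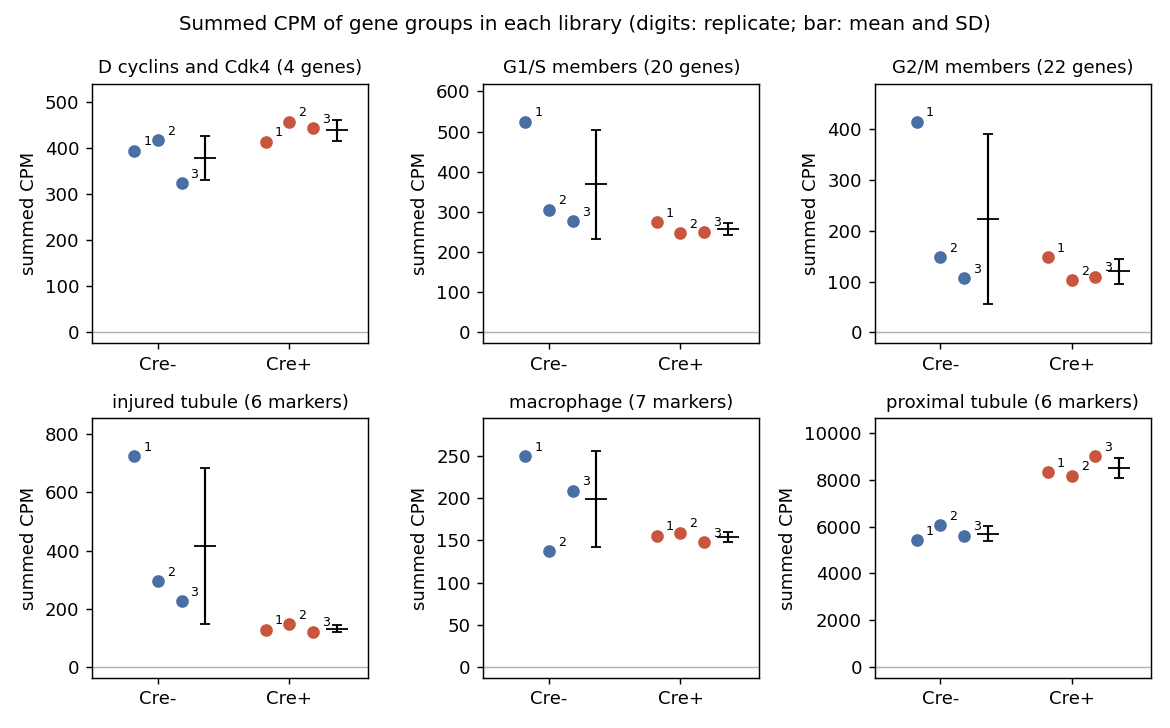
Summed CPM of 3 member groups (upper panels) and 3 marker lists (lower panels) in each library (vertical axes, linear), blue for Cre- and red for Cre+, with replicate numbers beside the points and a black bar for the mean and SD (n = 3 per group). Cre- replicate 1 is highest for G1/S (525 CPM), G2/M (415 CPM), injured tubule (724 CPM) and macrophage sums (249 CPM) and not for the D cyclin or proximal tubule sums.

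Upstream sequences are shown because promoters of G1/S and G2/M genes are known to carry different elements. Mouse promoters were taken from RefSeq (GRCm38.p6, 250 bases before to 50 after an annotated start), where 37 of 46 members had an entry. Only the first listed entry of each gene was used, and its start need not be the gene's main start. The letters searched on both strands were the CCAAT box (CCAAT), the cell cycle homology region, or CHR (TTTGAA or TTTAAA), and E2F core letters, read as TTCCCGC, or else as TTGGCGC, or else as TTCGCGC, or else as TTGCCGC. On the opposite strand a CCAAT box reads ATTGG. CHR letters were in 15 of 17 G2/M promoters (88.2%), 7 of 18 G1/S promoters (38.9%) and 27.8% of all 27025 promoters. E2F letters were in 3 of the 17 (17.6%), 11 of the 18 (61.1%) and 9.69% of all. CCAAT was in 15 of the 17 (88.2%), 12 of the 18 (66.7%) and 37.9% of all, and CCAAT with CHR in 14 of the 17 (82.4%), 5 of the 18 (27.8%) and 10.9% of all. A match is a run of letters, not a shown binding site, and CCAAT and E2F letters overlapped in 3 members.

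As examples, chosen after their letters and values were seen, the bases upstream of the start are printed for Ccnb1 (chr13:100786487-100786736, minus strand), Top2a (chr11:99024190-99024439, minus strand) and Mcm6 (chr1:128359706-128359955, minus strand), 5′ to 3′ on the gene's strand, with the matched letters in capitals.
Ccnb1: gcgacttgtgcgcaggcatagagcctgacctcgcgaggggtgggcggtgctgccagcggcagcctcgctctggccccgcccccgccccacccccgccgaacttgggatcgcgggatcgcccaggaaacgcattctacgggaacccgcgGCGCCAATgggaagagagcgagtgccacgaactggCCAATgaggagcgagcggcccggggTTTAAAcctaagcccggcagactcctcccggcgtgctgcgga
Top2a: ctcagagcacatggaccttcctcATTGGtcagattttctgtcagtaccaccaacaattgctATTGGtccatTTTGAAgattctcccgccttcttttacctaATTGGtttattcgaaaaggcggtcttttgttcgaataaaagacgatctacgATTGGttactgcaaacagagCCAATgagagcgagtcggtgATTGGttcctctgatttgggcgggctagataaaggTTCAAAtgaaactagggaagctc
Mcm6: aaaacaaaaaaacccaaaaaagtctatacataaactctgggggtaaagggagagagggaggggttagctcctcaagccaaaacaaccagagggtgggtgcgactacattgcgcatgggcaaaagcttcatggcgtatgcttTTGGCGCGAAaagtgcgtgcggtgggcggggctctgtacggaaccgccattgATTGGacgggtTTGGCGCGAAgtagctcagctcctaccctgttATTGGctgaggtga
Counted from the start, Ccnb1 had CCAAT at -99 and -67, CHR letters at -42 and E2F letters at -102 that overlap the first CCAAT. Top2a had 6 CCAAT boxes, and CHR letters at -179 and -23. Mcm6 had no CHR letters in the window, CCAAT at -57 and -14, and E2F letters in 2 stretches upstream, from -109 and from -46.

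Other genes of the pathway were counted in the same way. Of 41 other replication genes, 1 was higher in Cre+, 1 was lower and 39 did not pass. The share called was 4.88%, against 7.55% of all genes. The count higher was 0 with DESeq2's size factors or upper-quartile factors in edgeR, with the non-robust fit, without a filter, and without any 1 library other than Cre- replicate 3. Their median log2 fold change was -0.48, or -0.19 without Cre- replicate 1, and 38 were highest in that library. An unadjusted p under 0.05 was found for 14 of the 41, against 23.5% of all genes. DESeq2 called 7 lower and 1 higher, and limma voom 1 each. Among all genes they called 7.76% and 4.24% lower. Pold1, the catalytic subunit of DNA polymerase delta, was at 22.9, 19.4 and 17.5 CPM in Cre- and at 12.8, 12.5 and 13.0 CPM in Cre+. It was lower by a log2 fold change of -0.64 (SE 0.12, edgeR adjusted p = 0.0172). Without Cre- replicate 1 this was -0.53, at an edgeR adjusted p of 0.0361. The Pold1 call was lost when any Cre+ library was left out, at edgeR adjusted p up to 0.0758.

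Of 50 other mitosis genes, all had log2 fold changes below 0 and none passed edgeR's test, while 8 had an unadjusted p under 0.05, DESeq2 called 9 lower and limma voom 0. Among all genes, 23.5% had such a p, and DESeq2 and limma voom called 7.76% and 4.24% lower. Their median was -0.84, or -0.22 without Cre- replicate 1, and 47 were highest in that library. Of 24 G1 control and pocket protein genes none passed edgeR's test, 5 had an unadjusted p under 0.05, DESeq2 called 3 lower and limma voom 0. Their median was -0.21, or -0.09 without that library, and 13 were highest in Cre- replicate 1.

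Inhibitors of the cyclin-dependent kinases were tested for 6 of 7 listed genes, and 2 were lower in Cre+, as were 3.82% of all genes. Cdkn1a, which encodes the inhibitor p21, was at 260, 280 and 244 CPM in Cre- and at 15.3, 15.9 and 17.96 CPM in Cre+. It was lower by a log2 fold change of -4.00 (SE 0.10, edgeR adjusted p = 4.06e-07), and its level in Cre- replicate 1 lay between those of the other Cre- libraries. Cdkn2b, which encodes the Cdk4 inhibitor p15, was at 5.76, 5.39 and 6.75 CPM against 1.76, 3.42 and 1.99 CPM. It was lower by -1.32 (SE 0.28, edgeR adjusted p = 0.0252), and the adjusted p was 0.0504, 0.0864 and 0.112 without Cre- replicate 3, Cre+ replicate 1 and Cre+ replicate 3.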

How the data were processed

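For all 6 libraries, 1 table of raw counts by Ensembl gene was deposited, in whole numbers and not normalized. Per the labels' protocols, RNA came from a TRIzol extraction, polyadenylated RNA was selected, and strand-marked dUTP libraries were read in pairs. Per the submitters' processing notes, the tools were fastp, HISAT2, StringTie and edgeR and the build was GRCm39. The sources used here do not state versions, roles, the strand setting or how multi-mapped reads were handled, which matters for the 16 members that share exonic bases with a gene on the opposite strand. Of these, Kif20a shares 29.3% of its exonic bases with Cdc23, Cdk4 19.7% with Tspan31 and Ccne2 17.4% with Ints8. Processed copies named for members had at most 59 counts.

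Groups were read from the sample titles. Members and lists were chosen with earlier results of these data known. Counts were analysed with R 4.3.3: edgeR 4.0.16 (filterByExpr, TMM factors of 0.979 to 1.03, robust quasi-likelihood fit, all 6 libraries, no covariate), with Benjamini-Hochberg adjustment over 19927 genes. CPM are scaled by TMM, and log2 CPM use a prior count of 2. Each standard error is the fitted log2 difference over the root of its F statistic. No 2 libraries agreed within sampling noise (chi-square per degree of freedom at least 20.6). The coefficient of variation between libraries that edgeR terms biological (root of the common dispersion) came to 21.5%. Full values are given for Mki67, Top2a, Rrm2, the D cyclin group and, per other role, the 3 members of smallest p and the one of highest CPM. In the wider lists genes that passed are named, except 1 that is not reported here. Lengths and overlaps came from GENCODE M21 (GRCm38). Alternatives were DESeq2 1.42.0, limma 3.58.1 voom with quality weights, other scalings and filters, a replicate block, and leaving out each library. The code was tested on simulated data. The listed gene Lin54 was not matched and is not analysed here.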

Additional observations from a re-analysis of the deposited data

How the results depend on the processing

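The count of members called higher (2) was 1 with limma voom, 1 with the replicate block, and 0 to 1 over the settings that leave out 1 library. The count called lower (1) was 8 with DESeq2 (7.76% of all genes), 2 with limma voom (4.24%), 2 with the non-robust fit (3.79%), 2 with a filter of 1 CPM in 3 libraries (5.15%), 5 with the replicate block (4.03%), and 0 to 4 when single libraries were left out. Leaving out any Cre+ library left no member called and 462 to 700 genes in all. The median log2 fold change ranged with single libraries left out from -1.05 to -0.16 for the members, -0.72 to -0.17 for G1/S and -1.24 to -0.15 for G2/M. The median excess of Cre- replicate 1 ranged from 1.38 to 1.597.

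With single libraries left out, 12 members changed sign, 11 of them without Cre- replicate 1. Their ranges of log2 fold change were Ccne2 -0.48 to 0.060, Cdk2 -0.28 to 0.12, E2f8 -1.10 to 0.071, Mcm3 -0.57 to 0.25, Ccna2 -1.01 to 0.084, Bub1 -1.35 to 0.088, Bub1b -0.86 to 0.041, Mki67 -1.10 to 0.11, Cenpa -0.74 to 0.33, Kif20a -1.13 to 0.024, Prc1 -1.20 to 0.061. Cdk4, at 0.07 with all libraries, ranged from -0.00062 without Cre- replicate 3 to 0.13 without Cre- replicate 1. The cause was not tested.

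Deviations of same-numbered libraries from their group means correlated at 0.0547, 0.0551 and 0.0173. Differently numbered libraries were not compared, so these values cannot settle whether the numbers pair the libraries. With the block the medians were -0.53 for the members, -0.49 for G1/S and -0.73 for G2/M, and 1541 genes were called in all. Ccnd1 did not pass with the block (edgeR adjusted p = 0.0547), while Ccne1 (0.0444), Rrm2 (0.0150), Mcm6 (0.0415) and Ube2c (0.0310) did. Depth of 24 to 200 reads limits Ccne1.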
